A study of Mus musculus with 12 samples.

Results

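The erythroid lineage genes are 29 genes of red blood cells and their precursors, chosen by symbol, and 27 of them had a named probe set on the arrays, out of 19505 genes with one. They were grouped by role into 8 precursor regulators, 12 measured genes of the red cell membrane and its skeleton, 3 of haem and globin handling and 4 red cell enzymes. Expression of Epb41 and Ahsp was not analysed here. Each member had 1 probe set.

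The arrays profiled 12 neuroblastoma tumors, tumors of the sympathetic nervous lineage, which arose from neuroblastoma cells inoculated into A/J mice, an inbred strain. Tumors treated with high intensity focused ultrasound (HIFU), focused sound that breaks up tissue, were labelled 24, 48 or 72 h, with 3 tumors each, and 3 untreated tumors were the controls. The labels name no other treatment or allele, they give no age of the mice, and they leave unsaid if each tumor had its own animal, so the p-values cover array-to-array spread that could be technical. The labels can be read as time since HIFU or as length of treatment, and the first reading is assumed here. Each tumor had 1 Clariom S array, an Affymetrix chip with probe sets for most mouse genes. HIFU 72 h replicate 2 stood apart from the other arrays for these genes, and differences that it moves by over 1.5 times are given with and without it. Levels below are log2 signals, and every difference is a difference of log2 signals unless a fold is given.

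Red blood cells arise in bone marrow and, in mice, also in spleen. The transcription factors Gata1, Tal1 and Klf1 switch on a shared set of genes in the precursors, erythropoietin keeps the precursors alive through its receptor, and maturing cells then fill with membrane proteins, haem enzymes and carbonic anhydrases before they lose the nucleus. Circulating mature red cells carry little RNA, so transcripts of this set are best known from nucleated precursors and reticulocytes.

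Most erythroid genes had their highest signals in the tumors labelled 72 h and in a single tumor labelled 48 h. Of 27 measured members, 27 had a higher mean at 72 h than in controls (43.4% of all probe sets did), with a median difference of 1.97, against -0.06 over all 22206 probe sets. Red cell enzymes stood highest above control (median 5.94), followed by membrane genes (2.83), haem genes (1.97) and precursor regulators (1.11). None of the members passed an adjusted p of 0.05 (limma, 0 of 27; 0.00901% of all probe sets were called higher), with adjusted p-values between 0.135 and 0.75. At an unadjusted p under 0.05, 22 of 27 were higher, against 5.85% of all probe sets. All 3 arrays at 72 h lay above all 3 controls for 23 of 27 members, against 8.99% of all probe sets. With limma's array weights 14 of 27 passed (1846 of 22206 probe sets did), and without HIFU 48 h replicate 3 only Car1 and Ctse passed. Over all arrays left out in turn, 1 to 194 of the 22206 probe sets passed. In bulk tumor RNA, fewer or more cells of a type and less or more RNA per cell cannot be told apart.

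The members did not vary evenly over the tumors. In HIFU 72 h replicate 2, the array with the highest values, 26 of 27 members lay above the highest control, against 28.7% of all probe sets. The corresponding counts were 25 in HIFU 72 h replicate 1 (23.4% of probe sets), 24 in HIFU 72 h replicate 3 (26.0%) and 24 in HIFU 48 h replicate 3 (29.1%). In HIFU 48 h replicates 1 and 2 they were 11 (32.7%) and 17 (31.7%), and in HIFU 24 h replicates 1, 2 and 3 they were 10 (28.4%), 5 (25.7%) and 14 (35.3%). HIFU 72 h replicate 2 held the highest of the 12 signals for 23 of 27 members, against 14.9% of all probe sets. Without this array the median difference at 72 h was 1.20 in place of 1.97, and 27 of 27 members still had a higher mean than in controls. The medians by role were then 4.78 for enzymes, 1.48 for membrane genes, 1.24 for haem genes and 0.86 for regulators.

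**Figure D1:**
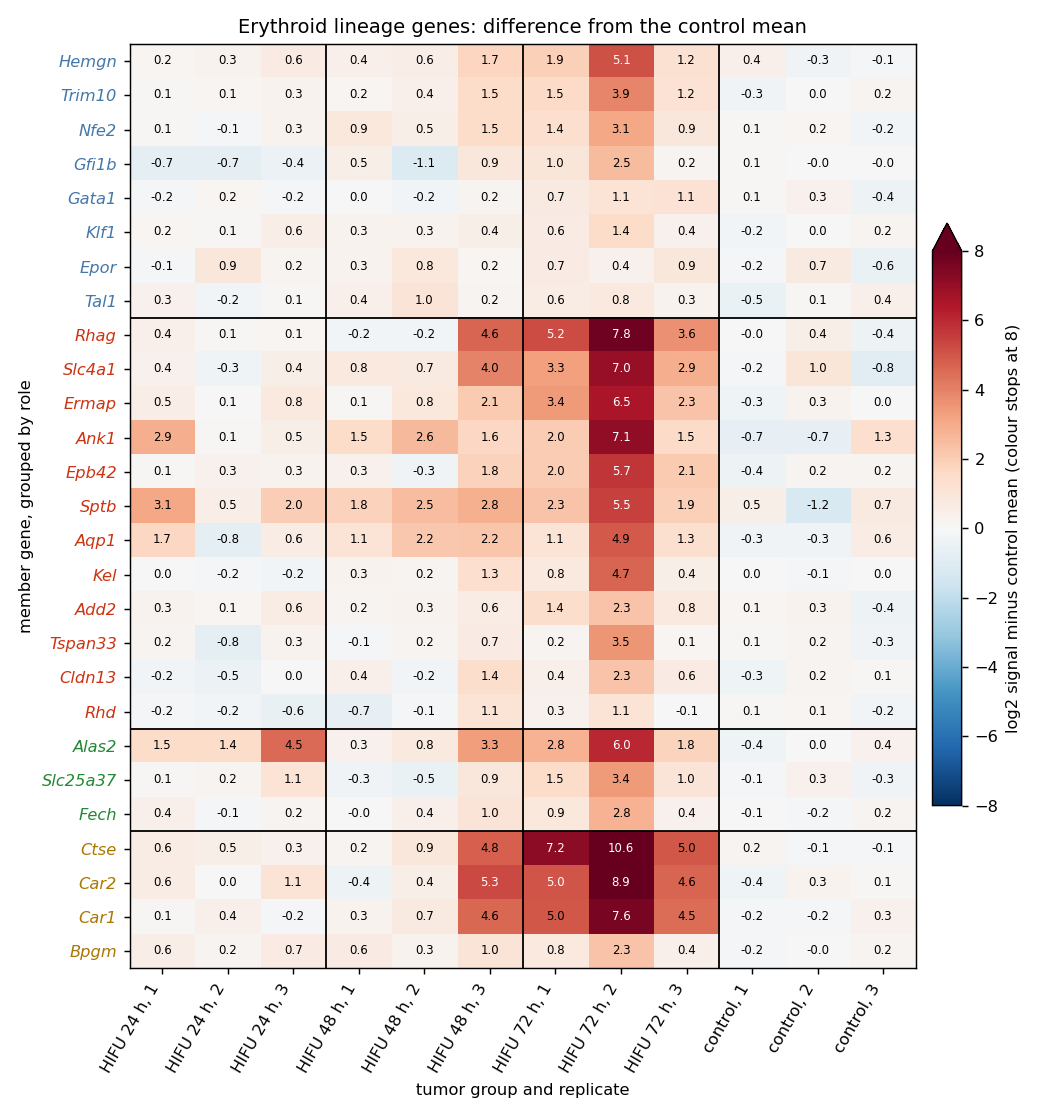
Difference of each array's log2 signal from the control mean for the 27 measured members (rows, by role: regulators, membrane, haem, enzymes) in the 12 tumors (columns). The 3 tumors at 72 h and HIFU 48 h replicate 3 are red for most membrane genes and enzymes, and HIFU 72 h replicate 2 is the darkest column.

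The factors that drive these genes bind short DNA words: GATA factors bind GATA words, Klf1 binds CACCC boxes and Nfe2 binds a longer element that holds TGAGTCA. Because most members were high on the same arrays, the 250 bases before the annotated start are shown for the 3 precursor regulators and the 3 membrane genes with the largest range over the arrays that were in the RefSeq promoter table (GRCm38.p6, a C57BL/6J genome and not that of A/J mice). Capitals mark matches on either strand to a GATA word (AGATAA in one form, AGATAG in another, TGATAA in the third, TGATAG in the last), a CACCC word (CCNCNCCC) or TGAGTCA, which also occurs in sites of other factors; overlapping matches run together.
Hemgn (GRCm38.p6, chr4:46404184-46404433, minus strand): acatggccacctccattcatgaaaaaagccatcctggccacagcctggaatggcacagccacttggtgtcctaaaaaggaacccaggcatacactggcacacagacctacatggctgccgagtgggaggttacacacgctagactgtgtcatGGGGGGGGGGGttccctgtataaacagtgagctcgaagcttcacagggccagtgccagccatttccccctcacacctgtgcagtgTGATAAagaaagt
Trim10 (GRCm38.p6, chr17:36869324-36869573, plus strand): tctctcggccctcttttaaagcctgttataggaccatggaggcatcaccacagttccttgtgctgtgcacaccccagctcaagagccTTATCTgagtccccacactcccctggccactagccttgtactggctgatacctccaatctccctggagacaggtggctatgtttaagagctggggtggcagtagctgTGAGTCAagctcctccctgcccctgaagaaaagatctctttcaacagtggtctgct
Gfi1b (GRCm38.p6, chr2:28621983-28622232, minus strand): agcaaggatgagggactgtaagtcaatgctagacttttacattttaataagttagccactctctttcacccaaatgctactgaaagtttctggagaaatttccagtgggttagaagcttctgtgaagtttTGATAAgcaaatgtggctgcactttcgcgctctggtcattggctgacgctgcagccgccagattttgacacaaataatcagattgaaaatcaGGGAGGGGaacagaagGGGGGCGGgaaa
Rhag (GRCm38.p6, chr17:40810899-40811148, plus strand): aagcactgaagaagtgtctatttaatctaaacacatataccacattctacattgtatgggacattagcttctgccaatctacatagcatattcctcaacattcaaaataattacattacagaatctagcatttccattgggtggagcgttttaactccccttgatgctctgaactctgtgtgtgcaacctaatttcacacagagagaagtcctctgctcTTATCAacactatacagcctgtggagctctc
Ermap (GRCm38.p6, chr4:119189996-119190245, minus strand): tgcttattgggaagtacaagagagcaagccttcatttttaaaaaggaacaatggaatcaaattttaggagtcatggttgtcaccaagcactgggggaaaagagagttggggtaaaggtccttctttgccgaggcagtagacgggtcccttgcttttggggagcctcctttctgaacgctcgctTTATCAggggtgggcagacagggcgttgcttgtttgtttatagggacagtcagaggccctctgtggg
Sptb (GRCm38.p6, chr12:76710548-76710797, minus strand): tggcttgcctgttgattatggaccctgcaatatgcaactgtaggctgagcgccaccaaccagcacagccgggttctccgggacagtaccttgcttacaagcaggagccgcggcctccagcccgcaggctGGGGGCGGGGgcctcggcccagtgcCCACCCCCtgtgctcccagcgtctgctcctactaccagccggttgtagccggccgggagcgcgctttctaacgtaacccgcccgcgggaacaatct
Rhag and Ermap each held 1 GATA word, 31 to 26 and 67 to 62 bases before the start, and no match to the other words. Hemgn held 1 GATA word 13 to 8 bases before the start and a run of G that gives 4 overlapping CACCC matches, and Trim10 held 1 GATA word and 1 TGAGTCA. Gfi1b held 1 GATA word and 2 CACCC words, and Sptb held 3 CACCC words, 2 of them overlapping, and no GATA word. For the shares, a gene with several annotated starts was counted if the window before any of them held a match. Of the 19 members in the table, which include Epb41, 14 (73.7%) had a GATA word so counted, against 29.7% of 27025 genes. A CACCC word was found for 12 of 19 members (63.2%), against 48.5% of all genes, and TGAGTCA for 2 of 19 (10.5%), against 5.16%. A match of letters is a description and does not show that a factor bound there.

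Among the precursor regulators, signals at 72 h lay above control by less than those of the membrane genes. Gata1, the transcription factor that commits precursors to the red cell lineage, is given first. Gata1 signals were 4.76, 5.12 and 4.77 at 24 h, 4.95, 4.69 and 5.15 at 48 h and 5.68, 6.04 and 6.06 at 72 h, against 5.0, 5.27 and 4.53 in controls. The 3 arrays at 72 h lay above every other array, close to one another, and the other times overlapped with controls. The difference at 72 h was 0.99 ± 0.25 SE (limma, adjusted p = 0.266), a 1.99-fold level, and 0.94 without HIFU 72 h replicate 2.

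Nfe2, a factor of globin and platelet genes, was low in controls. Its signals were 3.00, 2.81 and 3.16 at 24 h, 3.76, 3.34 and 4.34 at 48 h and 4.25, 5.97 and 3.77 at 72 h, against 2.96, 3.05 and 2.65 in controls. Both 48 h and 72 h lay above control without overlap, with differences of 0.93 (adjusted p = 0.42) and 1.78 ± 0.47 SE (limma, adjusted p = 0.281). The 72 h difference was 1.12 without HIFU 72 h replicate 2. Trim10, which mouse precursors need for late maturation, and Hemgn, a nuclear protein of blood precursors, were highest on the same arrays. Trim10 signals were 3.61, 3.66 and 3.80 at 24 h, 3.69, 3.91 and 4.98 at 48 h and 5.06, 7.41 and 4.70 at 72 h, against 3.26, 3.55 and 3.73 in controls. Hemgn signals were 4.32, 4.42 and 4.77 at 24 h, 4.55, 4.69 and 5.85 at 48 h and 6.05, 9.24 and 5.36 at 72 h, against 4.54, 3.86 and 4.01 in controls. For both genes HIFU 72 h replicate 2 stood far above the rest, and HIFU 48 h replicate 3 was next to the other 72 h arrays. The differences at 72 h were 2.21 ± 0.59 SE (limma, adjusted p = 0.281) and 2.75 ± 0.78 SE (limma, adjusted p = 0.295), and 1.37 and 1.57 without HIFU 72 h replicate 2.

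Gfi1b, a repressor needed for red cell and platelet precursors, differed from these in its values at 24 h. Gfi1b signals were 6.21, 6.23 and 6.48 at 24 h, 7.40, 5.85 and 7.82 at 48 h and 7.87, 9.43 and 7.14 at 72 h, against 7.0, 6.89 and 6.87 in controls. All 3 arrays at 24 h lay below all controls, as did 7.68% of all probe sets, and all 3 at 72 h lay above them. The differences from control were -0.61 ± 0.56 SE (limma, adjusted p = 0.751) at 24 h and 1.23 ± 0.56 SE (limma, adjusted p = 0.447) at 72 h, and 0.58 at 72 h without HIFU 72 h replicate 2. The other regulators had smaller differences at 72 h. Klf1, the activator of globin and membrane genes, differed by 0.82 and separated from controls, to a mean of 3.62 ± 0.56 at 72 h, against 2.81 ± 0.21 in controls (SD, n = 3), and by 0.50 without HIFU 72 h replicate 2. Tal1, the partner of Gata1, and Epor, the erythropoietin receptor, differed by 0.54 and 0.64 and overlapped with controls.

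**Figure D2:**
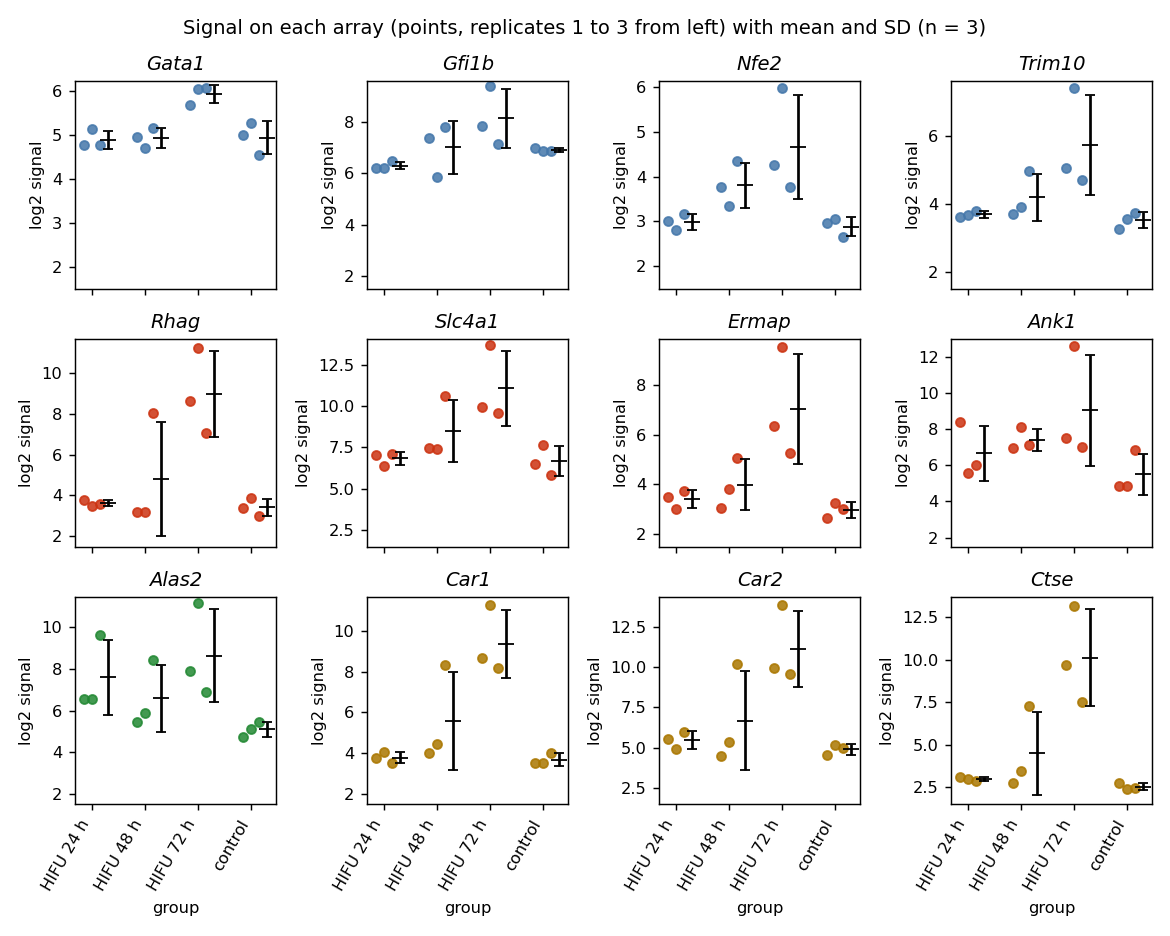
Log2 signal on each array (points) for 12 members in tumors at 24, 48 and 72 h and in controls, with the group mean and SD (n = 3) as black bars. Gata1 is tight at 72 h, while Rhag, Car1, Car2 and Ctse are near control on all arrays at 24 h and on 2 of the 3 arrays at 48 h.

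Membrane genes stood further above control. Rhag encodes the Rh-associated glycoprotein, an ammonia and gas channel of the red cell membrane. Rhag signals were 3.79, 3.50 and 3.56 at 24 h, 3.17, 3.19 and 8.05 at 48 h and 8.61, 11.21 and 7.06 at 72 h, against 3.37, 3.86 and 3.01 in controls. At 48 h its signals split, with 1 array near the 72 h tumors and the others near control, so that the mean at 48 h describes none of the 3. The difference at 72 h was 5.55 ± 1.22 SE (limma, adjusted p = 0.255), and 4.42 without HIFU 72 h replicate 2. Slc4a1, the band 3 anion exchanger and most abundant protein of that membrane, was high on the same 4 arrays. Its signals were 7.02, 6.35 and 7.11 at 24 h, 7.43, 7.37 and 10.62 at 48 h and 9.95, 13.66 and 9.59 at 72 h, against 6.5, 7.65 and 5.85 in controls. It differed by 4.40 ± 1.07 SE (limma, adjusted p = 0.262) at 72 h, and by 3.10 without HIFU 72 h replicate 2.

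Ermap carries a blood group antigen. Ermap signals were 3.51, 3.02 and 3.72 at 24 h, 3.05, 3.81 and 5.08 at 48 h and 6.35, 9.51 and 5.26 at 72 h, against 2.63, 3.25 and 3.01 in controls. All 3 arrays at 72 h lay above every other array, and the difference was 4.08 ± 0.87 SE (limma, adjusted p = 0.255). Epb42, which ties band 3 to the skeleton, and Add2, a cap of actin filaments, also separated fully at 72 h from each other group, with differences from control of 3.28 and 1.47, and of 2.05 and 1.07 without HIFU 72 h replicate 2. Kel, a blood group protease, and Cldn13, a claudin of mouse red cell precursors, separated from controls with 1.96 and 1.10, and 0.61 and 0.52 without that array. Rhd, the Rh antigen carrier, and the tetraspanin Tspan33 overlapped with controls at 0.45 and 1.30. Without HIFU 72 h replicate 2 these were 0.14 and 0.17; Tspan33 was at 7.47 in that array and at most 4.59 elsewhere.

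Ank1, Sptb and Aqp1 were also high on other arrays. Ankyrin 1 (Ank1) and beta spectrin (Sptb) anchor the skeleton to the membrane, and both are also made in skeletal muscle; Aqp1, a water channel, is also made by endothelium. Ank1 signals were 8.41, 5.59 and 6.0 at 24 h, 6.98, 8.12 and 7.15 at 48 h and 7.52, 12.61 and 7.03 at 72 h, against 4.86, 4.85 and 6.84 in controls. HIFU 24 h replicate 1 and HIFU 48 h replicate 2 held the highest Ank1 signals after HIFU 72 h replicate 2. The median of 12 skeletal muscle genes lay 5.47, 4.61 and 6.08 above the control mean in HIFU 24 h replicate 1, HIFU 48 h replicate 2 and HIFU 72 h replicate 2, and 2.20 above it in control replicate 3, the control with the highest Ank1. The part of muscle in these signals was not tested. Sptb was at 8.45 in HIFU 24 h replicate 1, where Rhag was at 3.79. Aqp1 was at 9.06 in that tumor, 9.58 in HIFU 48 h replicate 2 and 12.31 in HIFU 72 h replicate 2, where the median of 10 endothelial genes lay 1.93, 1.62 and 1.84 above the control mean. It was at 9.62 in HIFU 48 h replicate 3, where the endothelial median lay 0.51 above. The part of endothelium was not tested. The differences at 72 h were 3.54 ± 1.27 SE (limma, adjusted p = 0.353) for Ank1, 3.21 for Sptb and 2.44 for Aqp1. Without HIFU 72 h replicate 2 they were 1.76, 2.09 and 1.20.

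**Figure D3:**
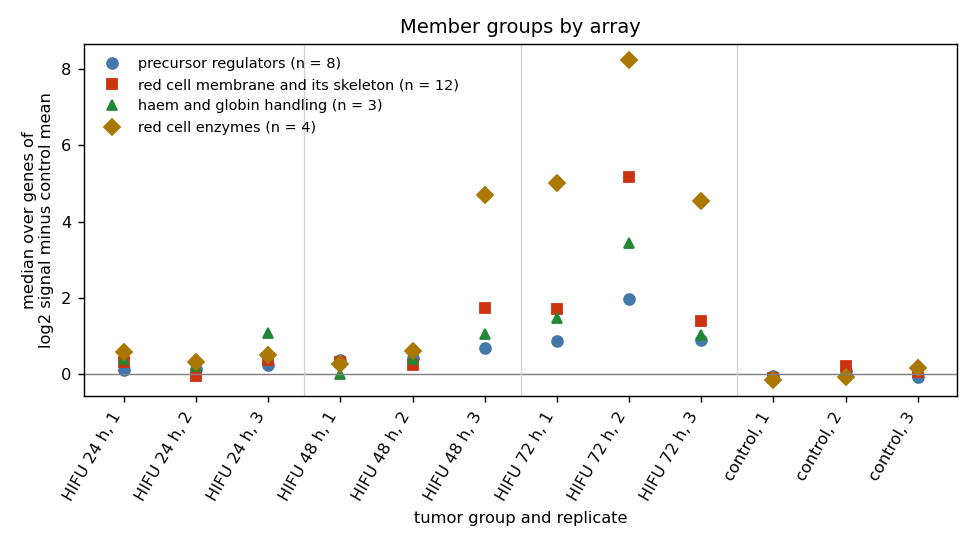
Median over the genes of each role of the log2 signal minus the control mean, for each of the 12 tumors (regulators 8 genes, membrane 12, haem 3, enzymes 4). In the tumors at 72 h and in HIFU 48 h replicate 3 the enzymes lie highest and the regulators lowest of the 4 roles.

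By array, the regulator medians were 0.85, 1.98 and 0.89 above control in HIFU 72 h replicates 1, 2 and 3, and the membrane medians were 1.69, 5.18 and 1.40. In HIFU 48 h replicate 3 they were 0.67 and 1.72. On the 5 remaining HIFU arrays the regulator medians lay between 0.10 and 0.42 and the membrane medians between -0.06 and 0.37. The signal of many members was low outside the 72 h tumors. The group mean was below 3.55, the level under which the dimmest 25% of probe sets lie, for 0 of 27 members at 72 h, against 10 of 27 in controls, 6 of them membrane genes and 3 regulators. Near the lower end of an array's range a log2 difference understates the fold. The order of the roles was not tested.

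Haem genes were read from 3 members. Alas2 catalyses the rate-limiting step of haem synthesis in red cell precursors. Alas2 signals were 6.58, 6.56 and 9.65 at 24 h, 5.45, 5.89 and 8.44 at 48 h and 7.91, 11.15 and 6.89 at 72 h, against 4.75, 5.11 and 5.47 in controls. HIFU 24 h replicate 3 was second only to HIFU 72 h replicate 2. Rhag (3.56), Car1 (3.52) and Slc4a1 (7.11) were near control in HIFU 24 h replicate 3. Slc25a37 (8.66) lay above every control there, as did 14 of 27 members in all (35.3% of probe sets). All 3 arrays at 24 h lay above all controls for Alas2, and for 2 of 27 members in all (6.84% of probe sets), the other being Ctse. The Alas2 difference was 2.49 ± 1.14 SE (limma, adjusted p = 0.512) at 24 h and 3.54 ± 1.14 SE (limma, adjusted p = 0.323) at 72 h. The 24 h difference was 1.46 without HIFU 24 h replicate 3, and the 72 h difference was 2.29 without HIFU 72 h replicate 2.

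Slc25a37, mitoferrin 1, carries iron into mitochondria, and Fech inserts it into haem. Slc25a37 signals were 7.65, 7.78 and 8.66 at 24 h, 7.31, 7.05 and 8.46 at 48 h and 9.03, 11.00 and 8.6 at 72 h, against 7.5, 7.91 and 7.32 in controls. Fech signals were 9.52, 8.99 and 9.35 at 24 h, 9.11, 9.52 and 10.17 at 48 h and 10.00, 11.90 and 9.49 at 72 h, against 9.07, 8.96 and 9.35 in controls. Both genes are also used outside the red cell lineage, and their controls were well above the dim range. At 72 h each separated from control, by 1.97 ± 0.58 SE (limma, adjusted p = 0.306) and 1.34 ± 0.51 SE (limma, adjusted p = 0.373). Without HIFU 72 h replicate 2 the differences were 1.24 and 0.62.

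Red cell enzymes held the 3 largest differences of the set. Ctse, the aspartic protease cathepsin E, is made in red cell precursors and also in stomach and immune cells. Ctse signals were 3.10, 3.02 and 2.86 at 24 h, 2.76, 3.45 and 7.29 at 48 h and 9.72, 13.15 and 7.51 at 72 h, against 2.78, 2.39 and 2.44 in controls. The mean was 10.13 ± 2.84 at 72 h, against 2.54 ± 0.21 in controls (SD, n = 3). Its difference of 7.59 ± 1.30 SE (limma, adjusted p = 0.135) was the largest of the 27. The control mean of Ctse lay among the dimmest 25% of probe sets. Car1 and Car2 are the carbonic anhydrases of red cells, and Car2 is also made by osteoclasts. Car1 signals were 3.78, 4.09 and 3.52 at 24 h, 4.0, 4.44 and 8.32 at 48 h and 8.68, 11.26 and 8.16 at 72 h, against 3.53, 3.52 and 4.04 in controls. Car2 signals were 5.52, 4.90 and 6.01 at 24 h, 4.50, 5.34 and 10.21 at 48 h and 9.94, 13.83 and 9.54 at 72 h, against 4.55, 5.18 and 4.97 in controls. In HIFU 48 h replicate 3 all 3 enzymes stood beside the 72 h tumors, and in the 5 other tumors at 24 and 48 h Car1 and Car2 stayed at or under 6.01. The differences at 72 h were 5.67 ± 1.02 SE (limma, adjusted p = 0.172) and 6.20 ± 1.36 SE (limma, adjusted p = 0.255). Without HIFU 72 h replicate 2 they were 4.72 and 4.84, and 6.08 for Ctse. Bpgm, which makes the phosphate that lowers oxygen affinity of haemoglobin, differed by 1.15, or 0.59 without that array, and separated from controls.

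**Figure D4:**
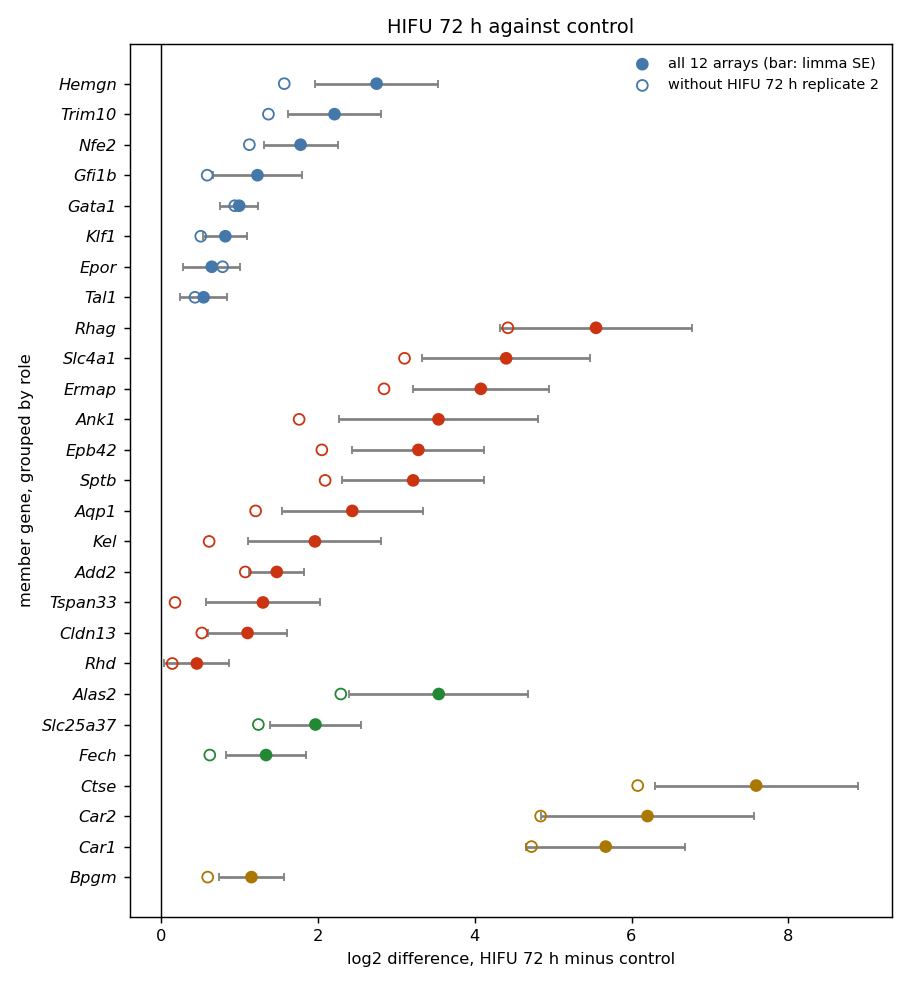
Log2 difference between tumors at 72 h and controls for each member, by role, with all 12 arrays (filled, bar: limma SE) and without HIFU 72 h replicate 2 (open). All 27 open points are right of 0, and 26 of them lie left of the filled one.

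At 48 h against control, 0 of 27 members passed (limma, 0.0045% of probe sets called higher) and 1 of 27 was higher at an unadjusted p under 0.05 (5.30% of probe sets). The members' median difference was 0.64, and 8 of 27 had non-overlapping higher arrays, against 10.3% of probe sets. Leaving out HIFU 48 h replicate 3 took the median to 0.29. It took the Car2 difference to 0.02, against 1.78 with it, the Slc4a1 difference to 0.73, against 1.81, and the Rhag difference to -0.23, against 1.39. Ctse, Car1 and Ermap gave 0.57, 0.52 and 0.47 without it, against 1.96, 1.89 and 1.02. At 24 h the median difference was 0.24, 0 of 27 passed (0.0495% of probe sets were called higher and 0.0045% lower), and 0 of 27 had an unadjusted p under 0.05 (9.84%).

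Between times the members were compared with the same fit. At 72 h against 24 h, 27 of 27 members were higher in mean (44.9% of probe sets) with a median of 1.67, 0 passed (limma, 0% of probe sets called) and 17 were higher at an unadjusted p under 0.05 (3.22% of probe sets). The median was 0.74 without HIFU 72 h replicate 2. The arrays did not overlap for 16 of 27, against 4.53% of probe sets. The largest differences were 7.13 ± 1.30 SE (limma, adjusted p = 0.341) for Ctse, 5.63 ± 1.36 SE (limma, adjusted p = 0.581) for Car2 and 5.57 ± 1.02 SE (limma, adjusted p = 0.341) for Car1. At 72 h against 48 h, 26 of 27 were higher in mean (46.5%) with a median of 1.12, 0 passed (0% of probe sets), 12 had an unadjusted p under 0.05 (3.33% of probe sets higher) and 6 did not overlap (4.70%): Gata1, Ermap, Epb42, Add2, Slc25a37 and Ctse. Without HIFU 72 h replicate 2 the median was 0.48, and that over membrane genes was 0.03, against 1.24 with it. At 48 h against 24 h, 0 passed (0% of probe sets), 0 of 27 had an unadjusted p under 0.05 (3.89% of probe sets in either direction), and 3 of 27 were higher without overlap (3.43%).

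Other genes of the pathway had smaller median differences at 72 h against control, and 0 of them passed. The 17 measured of 20 further red cell membrane genes had a median of 1.07, or 0.39 without HIFU 72 h replicate 2. At an unadjusted p under 0.05, 7 of the 17 were higher (5.85% of all probe sets). At that level 1 was lower, with a difference of -0.97, and the share of all probe sets called lower was not counted. Among the 17, Slc14a1 is the urea transporter of the Kidd blood group. It was at 6.14, 9.20 and 5.33 at 72 h, against 2.90, 2.59 and 3.19 in controls. The blood group gene Art4 differed by 1.30, or 0.77 without that array, and Tmcc2, a membrane protein, by 2.32, or 1.48. The 20 other regulators had a median of 0.23 with differences from -1.74 to 2.23, and 12 of 20 were higher in mean (43.4% of all probe sets). At an unadjusted p under 0.05, 7 were higher (5.85%), among them Lyl1 (2.23, or 1.45 without that array), a relative of Tal1, and E2f2 (1.80), a cell cycle factor. The globin repressor Bcl11a differed by 1.64, or 1.01 without that array. Sox6, its partner in globin silencing, differed by 1.04, and by -0.14 without it. Of 16 genes of haem synthesis and iron uptake, 15 were measured with a median of 0.11. Alad, the second enzyme of haem synthesis, differed by 1.30, the ferric reductase Steap3 by 2.33 (1.52 without that array) and Ppox, a late enzyme of that route, by -0.98. The 11 measured genes of terminal maturation had a median of 0.32, or -0.08 without HIFU 72 h replicate 2, with differences from -0.69 to 0.93. At an unadjusted p under 0.05, 0 were higher (5.85% of all probe sets) and 0 lower. Globins were read from 6 embryonic and minor genes (median 0.12). Hbq1b differed by 1.02 (0.53 without that array), Hba-x by 0.75 (0.67) and the embryonic Hbb-bh1 by -0.08 (-0.21). Hba-x was also above all controls at 24 h, at 3.41, 3.46 and 5.4, against 2.81, 2.81 and 2.95. Its difference at 24 h was 1.23 and did not pass (limma, adjusted p = 0.408). The main adult globin genes were not analysed here.

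Granulocyte precursor genes were high on the same 4 arrays as most erythroid genes, and other marrow and bone lists were less even. For 11 granulocyte precursor genes the median above control was 4.76, 7.04 and 3.25 in the 72 h tumors and 3.36 in HIFU 48 h replicate 3, and between -0.18 and 0.36 in the 5 other HIFU tumors. Ngp, a granule protein, was at 15.76, 17.65 and 14.14 at 72 h and at 13.25 in HIFU 48 h replicate 3, against 3.02, 3.13 and 3.06 in controls. Megakaryocyte and platelet genes (7 measured) lay 1.54, 2.73 and 0.58 above control at 72 h and 1.13 in HIFU 48 h replicate 3. In the 5 other HIFU tumors they lay between -0.10 and 0.84, with 0.84 in HIFU 48 h replicate 2 and 0.52 in HIFU 24 h replicate 3. Osteoclast genes (7 measured) lay 0.99, 3.34 and 1.18 above at 72 h and 0.75 in HIFU 48 h replicate 3. They reached 0.56 in HIFU 24 h replicate 3 and 0.44 in HIFU 48 h replicate 2. Bone genes (9 measured) lay 0.75, 3.79 and 0.14 above at 72 h, 0.37 in HIFU 48 h replicate 3 and 0.35 in HIFU 24 h replicate 1, and their median difference at 72 h was 1.47, or 0.45 without HIFU 72 h replicate 2. Ibsp, the bone sialoprotein of osteoblasts, rose at 72 h and was the only gene of all these lists past the threshold, at 7.14, 9.05 and 6.75, against 2.79, 2.78 and 2.58 in controls (difference 4.93, limma, adjusted p = 0.037). Marrow B cell precursor genes (7 measured) had a median difference of 0.15 at 72 h, and 5 of their 7 means at 72 h were among the dimmest 25%. Without overlap, 3 were higher (8.99% of all probe sets) and 1 lower, for which the share of all probe sets was not counted. The part of these cells in the erythroid signals was not tested.

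**Figure D5:**
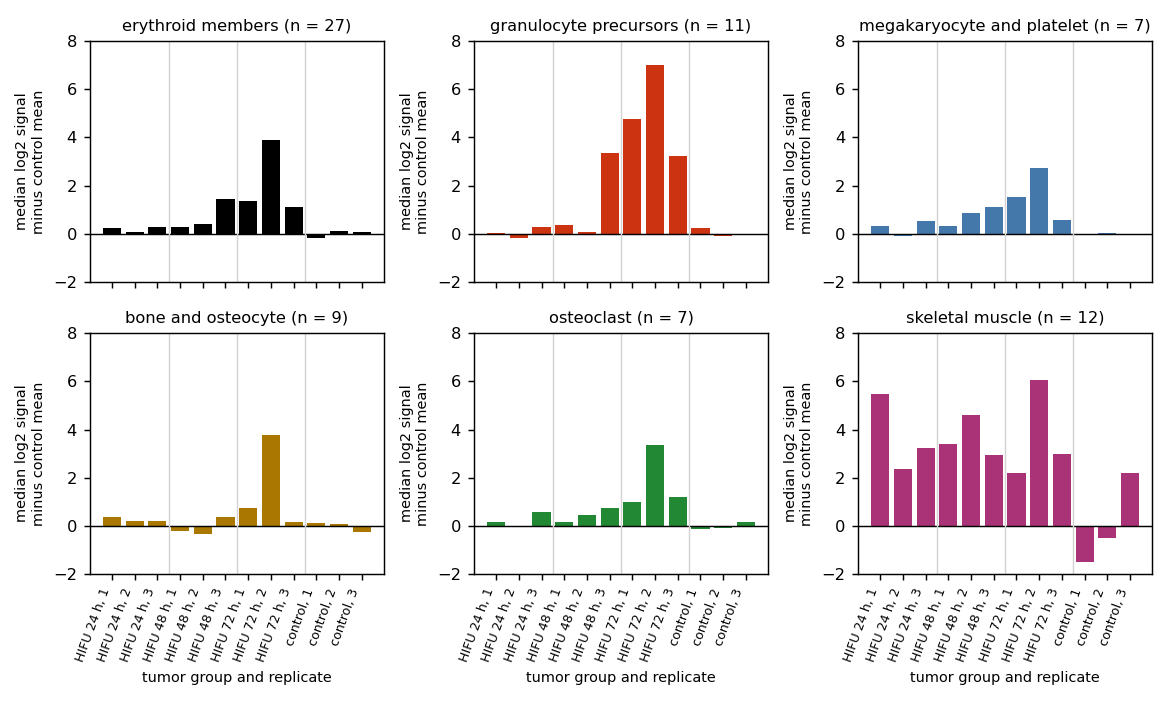
Median log2 signal minus control mean on each array for the erythroid members (27 genes) and 5 other lists (number of measured genes in each title). Granulocyte precursor genes are high in the tumors at 72 h and in HIFU 48 h replicate 3, as the erythroid members are. Skeletal muscle genes are above the control mean in all HIFU tumors and in control replicate 3.

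Mature neutrophil genes were above control in each HIFU tumor, by a median of 0.72 to 10.23, with the highest at 72 h. Macrophage genes, general markers and genes of red cell handling together, lay between -0.77 and 3.61 relative to the control mean in the HIFU tumors. Endothelial genes lay between 0.10 and 1.93 and skeletal muscle genes between 2.20 and 6.08 above the control mean in these tumors. The muscle medians of the controls were -1.51, -0.54 and 2.20. The neuroblastoma list was measured for 10 of 12 genes, 0 of them with a group mean among the dimmest 25%, and Ret, a receptor of that lineage, was at 12.74 to 15.58 on the 12 arrays. The median of the list relative to control was lowest in HIFU 72 h replicate 2 (-1.48) and next lowest in control replicate 1 (-1.21). Cell cycle genes lay between -1.16 and 0.21 relative to control in the HIFU tumors.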

How the data were processed

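RNA of each tumor was read on 1 Clariom S chip. The authors deposited log2 signals for 22206 probe sets, from 1.75 to 19.93, with array medians between 5.43 and 5.68. The log2 scale was read from the range of the values, so each fold rests on it. Transcriptome Analysis Console 4.0 is named per the submitters' processing notes; how probes were summarized, corrected and filtered, and on which build, was not given in the sources used here. No further scaling was applied.

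Probe sets were named through the platform annotation and RefSeq gene numbers (GRCm38.p6): 19572 had 1 symbol, 2634 none and 0 several. Where a gene has several probe sets, the one with the highest mean is used. Groups come from the sample titles. The test was limma (version 3.58.1, R version 4.3.3: a mean per group over all 12 arrays, moderated statistics with 3.37 prior degrees of freedom, two-sided), with Benjamini-Hochberg adjustment across the 22206 probe sets and a threshold of 0.05. SE is limma's standard error. The code was tested on simulated data before use. With 3 arrays per group, the number of arrays limits the precision, and arrays give no read depth.

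The members, roles, gene lists and rules were chosen with earlier results of these data known. All members are named. Values on every array are given for the 3 members of each role with the smallest p of an F test over the times and the 3 with the largest range, and at most 4 genes are named from each other list by the same 2 measures. Alternatives were other normalizations, filters, variance models, array weights, a replicate block, fewer groups, another threshold and leaving out each array.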

Additional observations from a re-analysis of the deposited data

Results flagged for a closer look

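Gfi1b lay below all controls on the 3 arrays at 24 h (6.21, 6.23 and 6.48, against 7.0, 6.89 and 6.87 in controls) and above all controls on the 3 arrays at 72 h (7.87, 9.43 and 7.14). Neither difference from control passed (limma, adjusted p = 0.751 at 24 h and 0.447 at 72 h), and 7.68% of all probe sets lay below all controls at 24 h. The difference between 72 h and 24 h was 1.84, and it did not pass (limma, adjusted p = 0.808); it was 1.20 without HIFU 72 h replicate 2. At 48 h the 3 arrays lay on both sides of the controls. Groups of 3 arrays are too small for a test of single arrays that stand apart.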

How the results depend on the processing

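The 27 differences between 72 h and control kept their sign in every alternative that gave them. Klf1, Kel, Epb42 and Add2 were absent when the dimmest 25% of probe sets were left out, and the other threshold gave counts only. The number of members past the threshold at 72 h was 0, and 14 with array weights, which also called 1 member (Sptb) at 24 h and 1 (Sptb) at 48 h. It was 2 (Car1 and Ctse) without HIFU 48 h replicate 3, and 0 to 2 over all arrays left out in turn. At 72 h against 24 h it was 0 to 1 (Car1, without HIFU 48 h replicate 3). At an unadjusted p under 0.05 with a difference of 1 or more it was 1 at 48 h and 20 at 72 h, and 11 at 72 h against 48 h and 17 at 72 h against 24 h. Over all probe sets that threshold called 1197, 1623 and 1620 at 24, 48 and 72 h against control, 153 at 48 h against 24 h, 396 at 72 h against 48 h and 536 at 72 h against 24 h. The adjusted threshold called 12, 1 and 2 probe sets at 24, 48 and 72 h. Array weights gave 1118, 944 and 1846, and 7 at 72 h against 24 h. The replicate block gave 3, 0 and 1. Quantile normalization gave 1 and leaving out the dimmest 25% gave 4 at 72 h, and fitting only the groups compared gave 6 at 48 h and 2 at 72 h against 24 h. Leaving out 1 array gave 0 to 253 at 24 h, 0 to 312 at 48 h and 1 to 194 at 72 h, each highest without control replicate 3, and 0 to 2 at 72 h against 48 h and 0 to 7 at 72 h against 24 h.

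With array weights the medians at 72 h against control were 1.14 for haem genes and 0.71 for regulators. They were 0.67 and 0.36 against 48 h, and 0.44 for haem and 0.82 for membrane genes against 24 h. Leaving out 1 array gave a membrane median of 1.48 to 3.44 at 72 h against control, and of 0.028 to 1.87 against 48 h and 0.74 to 2.68 against 24 h. Regulators ranged from 0.42 to 1.11 against 48 h and from 1.00 to 1.55 against 24 h, haem genes from 0.81 to 2.41 and from 0.46 to 1.93, and all members from 0.74 to 2.12 against 24 h. Rhag at 48 h ranged from -0.23 to 2.21, reversing without HIFU 48 h replicate 3, and Alas2 at 72 h against 24 h from -0.20 to 2.08, reversing without HIFU 72 h replicate 2. The causes were not tested. The sample titles do not say if the replicate numbers pair the samples. Of 18 same-numbered pairs of arrays, 4 had deviations correlated above 0.1 (-0.608 to 0.625). This cannot settle the pairing, because deviations from a mean of 3 arrays depend on one another. The block called 0 members, as did the fit without it. Averaging probe sets of a gene was not run, because each member had 1. Dim signals bound what can be read for 10 members in controls.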
